A study of Mus musculus with 82 samples.

Results

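The transcriptional response to the nucleoside AICAR was described in primary mouse hepatocytes that lack AMP-activated protein kinase (AMPK), the kinase that AICAR is generally used to activate. The members were the 10 arrays of AMPK-null hepatocytes exposed to AICAR at 300 µM for 4 h and the 9 arrays of the same cells exposed to vehicle (DMSO) for 4 h, 19 of the 82 arrays of the series, chosen by their genotype and treatment labels alone. The wider study set AICAR and a second AMPK activator, 991, against vehicle in control and AMPK-null cells, in hepatocytes and in mouse embryonic fibroblasts (MEFs).

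All hepatocytes were of the C57BL/6 strain. The AMPK-null cells (dKO) had the genotype AMPK alpha1-/- alpha2-/-, which removes both catalytic subunits, and the WT cells are the controls. Cells were isolated by collagenase perfusion, plated with insulin at 10 nM, thyroid hormone (T3) at 200 nM and dexamethasone at 100 nM, and kept overnight in medium that held dexamethasone at 100 nM but no added insulin or T3. Every group therefore carried the same glucocorticoid exposure, which is itself a strong regulator of liver genes. The groups used here are dKO hepatocytes with AICAR at 300 µM (10 arrays), with 991 at 3 µM (10 arrays) and with vehicle (9 arrays), WT hepatocytes with AICAR at 300 µM and with vehicle (10 arrays each), and dKO MEFs with AICAR at 2 mM and with vehicle for 4 h (4 arrays each, technical replicates only). Each hepatocyte group holds 2 biological replicates, called preparations 1 and 2 here, with up to 5 technical replicates in each. The labels do not say how many animals went into a preparation, whether the alleles were absent from the whole body or from the liver, or what part of each gene was deleted.

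AICAR enters cells through nucleoside transporters and is phosphorylated by adenosine kinase to ZMP, a mimic of AMP that binds the regulatory gamma subunit of AMPK. ZMP can also act on other enzymes that sense AMP, such as the gluconeogenic enzyme fructose bisphosphatase, and it is a natural intermediate of purine synthesis. The compound 991 binds AMPK at a different place, the pocket formed between the catalytic and the beta subunit, and is not a nucleotide analogue.

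Values are log2 intensities of an Affymetrix mouse array, and a difference of 1 is a doubling. Technical replicates were averaged within a preparation, so n = 2 preparations per group, and changes were fitted within preparation with limma over the 12 preparation means of all hepatocyte groups. Changes are log2 AICAR minus vehicle ± standard error (SE). A gene is called at a Benjamini-Hochberg adjusted p under 0.05 over 18032 genes, with 1 probe set per gene. With 2 preparations a group, the p-values lean on the spread shared by all genes and groups, and the small number of preparations limits the precision.

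The 19 arrays were of even quality, with medians of 5.877 to 5.972 and correlations of 0.9977 to 0.9984 with the rest of their group. Prkaa1, the gene of the alpha1 subunit, lay at 4.21, 4.69 and 4.83 (lowest, median and highest array) with AICAR and at 4.33, 4.50 and 4.81 with vehicle in dKO cells, against 5.40, 5.60 and 5.93 in WT cells with vehicle, so all dKO vehicle arrays were below all WT vehicle arrays. Prkaa2, the gene of the alpha2 subunit, lay at 9.37, 9.59 and 9.72 with AICAR and 9.52, 9.60 and 9.75 with vehicle in dKO cells, against 9.59, 9.69 and 9.85 in WT cells with vehicle, and these ranges overlapped. A probe set outside the deleted part would not register the deletion, and the labels do not say where the Prkaa1 and Prkaa2 probe sets lie relative to it. Neither gene was called with AICAR in dKO cells (0.12 ± 0.10, adjusted p = 0.488 and -0.04 ± 0.06, adjusted p = 0.688).

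Markers of the labelled cell type dominated. The 9 measured hepatocyte markers had a mean log2 intensity of 12.86 to 12.96 over the AICAR arrays and 12.71 to 12.85 over the vehicle arrays. Of them 4 were called higher, among them the urea cycle enzymes Arg1 (0.37 ± 0.04) and Cps1 (0.23 ± 0.03). Another urea cycle enzyme, Ass1, was the 1 hepatocyte marker that lay below the median of the arrays. Markers of other liver cells were present at lower levels and some also moved. Of 11 markers of Kupffer cells, the resident macrophages of the liver, 7 were called higher and none lower (Cd68 0.45 ± 0.08, Vsig4 0.43 ± 0.09), with mean levels of 7.84 to 8.18 on AICAR arrays and 7.66 to 7.89 on vehicle arrays. Of 10 endothelial markers, 5 were called higher and none lower (Stab2 0.49 ± 0.07, Cdh5 0.45 ± 0.06), with mean levels of 6.48 to 6.81 and 6.20 to 6.52. Against this, 10.6% of all genes were called higher. Without preparation 1 or without preparation 2, the Kupffer count was 1 or 2 and the endothelial count 3 or 2, and the median change of each list stayed above 0.2 (0.23 and 0.27 for Kupffer cells, 0.32 and 0.24 for endothelium). Among stellate cell and fibroblast markers 2 of 10 were higher (Reln 0.69 ± 0.12 and Dcn 0.22 ± 0.06), among cholangiocyte markers 1 of 7 was lower (Sox9 -0.37 ± 0.09), and among lymphocyte and erythroid markers 1 of 10 was higher (Alas2 0.36 ± 0.07). In such bulk samples more cells of a type and more RNA per cell cannot be told apart, and the part of these other cells in the results below was not tested.

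**Figure D1:**
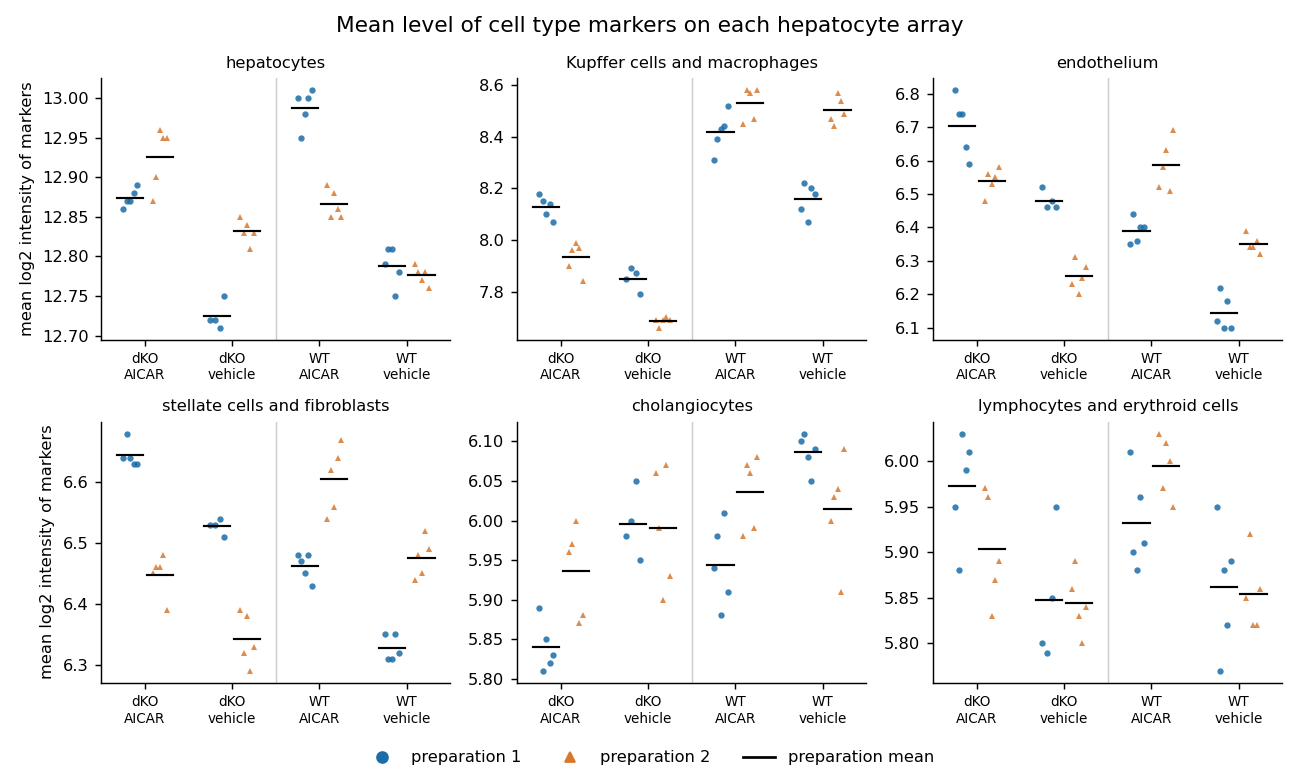
Each panel plots the mean log2 intensity of 1 list of cell type markers (vertical axis, a separate scale per panel) on each array of dKO and WT hepatocytes with AICAR or vehicle. Points are arrays, with circles for preparation 1 and triangles for preparation 2, and black lines are preparation means. The mean of the hepatocyte markers lies above 12.7 on every array, and the Kupffer and endothelial means are higher with AICAR than with vehicle within each dKO preparation.

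AICAR changed the dKO hepatocyte transcriptome widely. Of 18032 genes, 3221 were called (17.9%), 1903 higher (10.6%) and 1318 lower (7.31%), and 198 of the rises and 169 of the falls were at least 1.5-fold (2.04% of genes in all, 1.1% higher and 0.937% lower). All 3221 called genes had the same sign of change in both preparations. This is largely fixed by the call, which rests on the mean of these same changes, and is no separate support. The correlation of the change in preparation 1 with that in preparation 2 was 0.716 across all genes, which are not independent replicates. The median change over all genes was 0.04, with an interquartile range of -0.05 to 0.12. The count depends on the fit: with no replicate block for preparation 1078 genes were called. With preparation 1 left out 1018 were called and with preparation 2 left out 1678, where the single remaining dKO preparation is assumed to vary like the WT groups.

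The largest rise belonged to the single probe set of H3f3b, a gene of the replication-independent histone variant H3.3. It lay at 9.93, 10.34 and 10.83 with AICAR, against 6.32, 6.51 and 6.72 with vehicle, so the groups were far apart and every AICAR array was above every vehicle array. The change was 3.87 ± 0.20, or 14.6-fold (adjusted p = 3.69e-07). H3f3b has no other matched probe set against which to check this value, and its vehicle arrays lay below the median level of all genes (6.9). Where the probe set lies in the transcript was not checked, so the value may not hold for the whole H3f3b message. Egr1, an immediate early zinc finger transcription factor, lay at 12.44, 12.81 and 13.15 with AICAR, against 9.87, 10.11 and 10.56 with vehicle, and rose by 2.55 ± 0.21. Gadd45g, a growth arrest and stress gene, lay at 8.86, 9.36 and 9.80 with AICAR, against 6.60, 6.97 and 7.57 with vehicle, and rose by 2.20 ± 0.25. In both genes the rise was larger in preparation 2 (3.10 and 2.91) than in preparation 1 (1.99 and 1.49).

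Fos, the AP-1 subunit, was the leading gene in which the preparations differed most. Its arrays lay at 8.92, 10.09 and 11.25 with AICAR, against 7.65, 7.81 and 8.92 with vehicle, and the groups touched. In preparation 2 Fos averaged 11.13 with AICAR and 7.73 with vehicle, a change of 3.41, whereas in preparation 1 it averaged 9.10 with AICAR and 8.89 with vehicle, a change of 0.21. The fitted change of 1.81 ± 0.54 (adjusted p = 0.0397) is therefore an average of unlike preparations, and without preparation 2 it was 0.21 with adjusted p = 0.45.

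Other leading rises were steadier. Pdk4, the kinase that switches off pyruvate dehydrogenase when fat is burned, lay at 9.69, 10.07 and 10.34 with AICAR, against 8.36, 8.44 and 8.71 with vehicle, and rose by 1.58 ± 0.24. Hbegf, an EGF receptor ligand shed from the cell surface, rose by 1.64 ± 0.13, with arrays at 9.03, 9.28 and 9.46 against 7.19, 7.53 and 7.97 with vehicle. The transcription factor Atf3 rose by 1.26 ± 0.26 (10.72, 11.36 and 12.06 with AICAR, against 9.63, 10.49 and 10.61 with vehicle). The forkhead repressor Foxp1 rose by 1.13 ± 0.09, and all 7 of its other probe sets were called in the same direction. Rnf225 (1.92 ± 0.15), Csrnp1 (1.21 ± 0.09) and Myo16 (1.16 ± 0.15) rose too, and in each the AICAR arrays did not overlap the vehicle arrays.

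Long noncoding RNAs stood among the largest falls. Neat1, the RNA scaffold of nuclear paraspeckles, lay at 8.80, 8.95 and 9.34 with AICAR, against 12.29, 12.73 and 12.80 with vehicle, and fell by 3.60 ± 0.19, or 12.1-fold (adjusted p = 3.83e-07). The groups did not overlap, and a second, dimmer Neat1 probe set was not called. Dancr, a noncoding RNA that hosts small nucleolar RNAs, lay at 6.19, 6.60 and 7.05 with AICAR, against 9.11, 9.16 and 9.25 with vehicle, and fell by 2.58 ± 0.12. The single probe set of Rpl12, a ribosomal protein gene, lay at 5.91, 6.05 and 6.41 with AICAR, against 8.34, 8.47 and 8.50 with vehicle, and fell by 2.37 ± 0.09. Rpl12 has no other matched probe set against which to check this value, and where its probe set lies in the transcript was not checked.

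Coding genes that fell most included a chemokine and a stress factor. Cxcl1, a chemokine that attracts neutrophils, lay at 8.75, 9.01 and 9.18 with AICAR, against 11.23, 11.35 and 11.96 with vehicle, and fell by 2.62 ± 0.12, with its other 2 probe sets called lower too. Ddit3, which encodes the stress transcription factor CHOP, lay at 7.99, 8.40 and 9.05 with AICAR, against 9.88, 11.38 and 11.63 with vehicle, and fell by 2.33 ± 0.29. Its level differed between the preparations in both groups (8.03 and 8.89 with AICAR, 10.08 and 11.50 with vehicle), while the change was -2.05 and -2.61 in preparations 1 and 2. The other, dimmer Ddit3 probe set changed by -0.89 and was not called. Sbno2, a transcriptional coregulator, fell by 1.77 ± 0.08, with all 3 of its other probe sets called lower. Tmem186 (-1.78 ± 0.15), Tcim (-1.58 ± 0.14) and Krit1 (-1.52 ± 0.07) also fell without overlap between the arrays of the groups. The 3 other Tmem186 probe sets changed by -0.18, -0.07 and -0.24, and of these only the last was called.

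**Figure D2:**
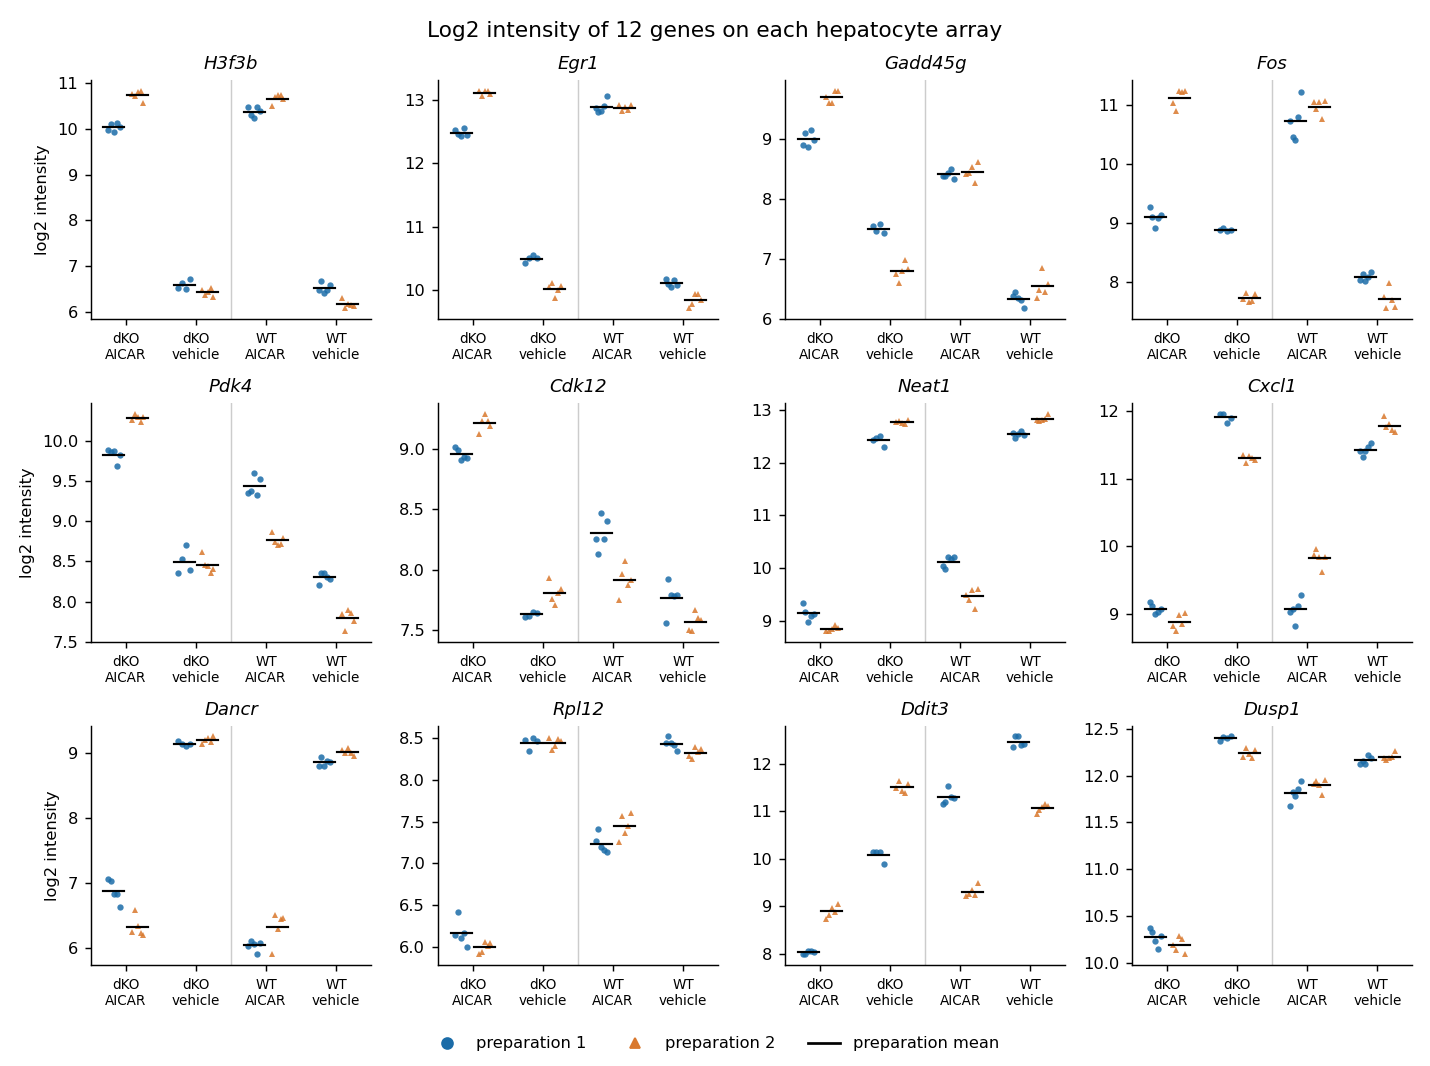
The panels show the log2 intensity (vertical axis, a separate scale per gene) of 6 rising and 6 falling genes on every array of dKO and WT hepatocytes with AICAR or vehicle. Points are arrays, with circles for preparation 1 and triangles for preparation 2, and black lines are preparation means. H3f3b is above 9.9 on all dKO AICAR arrays and below 6.8 on all dKO vehicle arrays, Fos parts from its vehicle arrays mainly in preparation 2, and Dusp1 falls far less in WT than in dKO cells.

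Immediate early genes, which cells transcribe within minutes of a signal, moved in both directions. Of 20 measured members 7 were called higher and 5 lower, with a median change of 0.20. Beside Egr1, Fos and Atf3, the falls included Dusp1, the nuclear phosphatase that switches off MAP kinases, and Ier3, an immediate early survival gene. Dusp1 lay at 10.09, 10.24 and 10.37 with AICAR, against 12.19, 12.30 and 12.42 with vehicle, and fell by 2.09 ± 0.04 (adjusted p = 2.38e-10). That fall was nearly equal in the preparations (-2.13 and -2.05). Ier3 lay at 7.72, 7.92 and 8.12 with AICAR, against 9.38, 9.51 and 9.59 with vehicle, and fell by 1.60 ± 0.09.

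Dusp1, Ppp1r15a and Btg2 are classical stimulus-induced genes, and their promoters hold a full cyclic AMP response element (CRE), TGACGTCA, which is why they are shown. Dusp1 fell, whereas Ppp1r15a, a regulatory subunit that recruits a phosphatase to the translation factor eIF2, rose by 1.02 ± 0.15 and the antiproliferative gene Btg2 rose by 0.54 ± 0.10. The sequences run 5′ to 3′ on the strand of the gene, around the start site in RefSeq (GRCm38.p6), with the CRE in capitals and, in Dusp1, also an E-box, CACGTG. All 3 genes lie on the minus strand, Dusp1 at chr17:26508423-26508722, Ppp1r15a at chr7:45526219-45526518 and Btg2 at chr1:134079106-134079405.
Dusp1: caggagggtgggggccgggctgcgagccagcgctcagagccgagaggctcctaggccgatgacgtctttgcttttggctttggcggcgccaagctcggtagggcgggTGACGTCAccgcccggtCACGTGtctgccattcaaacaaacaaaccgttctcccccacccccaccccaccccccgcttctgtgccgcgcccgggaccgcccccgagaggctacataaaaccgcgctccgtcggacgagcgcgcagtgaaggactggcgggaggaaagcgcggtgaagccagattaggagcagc
Ppp1r15a: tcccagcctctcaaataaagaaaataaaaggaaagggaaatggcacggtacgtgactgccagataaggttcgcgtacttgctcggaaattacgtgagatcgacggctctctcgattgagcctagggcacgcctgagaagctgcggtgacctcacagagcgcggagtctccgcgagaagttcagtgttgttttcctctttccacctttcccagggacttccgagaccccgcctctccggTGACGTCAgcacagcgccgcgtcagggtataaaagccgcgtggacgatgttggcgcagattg
Btg2: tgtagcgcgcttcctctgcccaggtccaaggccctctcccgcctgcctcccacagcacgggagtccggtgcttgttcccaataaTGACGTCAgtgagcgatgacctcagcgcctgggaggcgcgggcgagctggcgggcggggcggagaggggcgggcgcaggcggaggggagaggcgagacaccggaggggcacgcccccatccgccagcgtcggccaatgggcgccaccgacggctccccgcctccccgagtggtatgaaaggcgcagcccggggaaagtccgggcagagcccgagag
The CRE starts 143 bases upstream of the start site in Dusp1, 12 in Ppp1r15a and 166 in Btg2, and the E-box of Dusp1 starts 126 bases upstream without overlapping the CRE. Searched on both strands, the CRE occurs in 1.79% of 32851 such windows and in those of 6 of the 113 named genes that have one (Flcn, Dusp1, Ppp1r15a, Btg2, Mcm5 and Tra2a). Of these, Flcn was not called and Mcm5 fell, so genes with the motif moved in both directions. The E-box occurs in 7.15% of all windows and in 9 of the 113. A match is a stretch of letters and not evidence of a bound factor.

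Of 22 measured genes around P-TEFb, the kinase that releases paused RNA polymerase, 5 were called higher (22.7%) and 3 lower (13.6%), with a median of 0.02. Ccnt2, a cyclin partner of the P-TEFb kinase, lay at 7.23, 7.67 and 7.93 with AICAR, against 9.54, 9.74 and 9.92 with vehicle, and fell by 2.10 ± 0.11, with 3 of its 4 other probe sets called lower. The other cyclin gene, Ccnt1, rose by 0.36 ± 0.05. Cdk12, a kinase of the elongating polymerase, lay at 8.91, 9.07 and 9.29 with AICAR, against 7.61, 7.71 and 7.93 with vehicle, and rose by 1.36 ± 0.08. Probe sets of Cdk12 disagreed, with 2 others called higher and 2 called lower, and over the mean of all its probe sets neither the change nor its difference from WT was called. Ppp1r10, a phosphatase subunit of the elongation machinery, rose by 0.65 ± 0.08. Hexim1, the inhibitor of P-TEFb, was not called on its brighter probe set (-0.04 ± 0.13, adjusted p = 0.884) and was called higher by 2.26 on the other.

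Among metabolic genes, 8 of 17 measured gluconeogenesis genes were called higher (47.1%), none was called lower and 9 were not called, with a median of 0.28 against 0.04 for all genes. Pck1, the cytosolic enzyme that commits oxaloacetate to glucose, lay at 9.35, 10.09 and 10.72 with AICAR, against 8.72, 9.13 and 9.31 with vehicle, and rose by 0.99 ± 0.26 (adjusted p = 0.021). All AICAR arrays were above all vehicle arrays, but the change was 0.50 in preparation 1 and 1.48 in preparation 2, and without preparation 2 Pck1 was not called (adjusted p = 0.242). Slc37a4, the glucose 6-phosphate transporter, rose by 0.56 ± 0.06, the amino acid enzyme Tat by 0.50 ± 0.09 and pyruvate carboxylase (Pcx) by 0.42 ± 0.07. G6pc, the glucose 6-phosphatase, lay at 8.57, 9.01 and 9.62 with AICAR and 7.79, 8.77 and 9.05 with vehicle (0.60 ± 0.24, adjusted p = 0.113) and did not pass. The list kept 7 higher calls without preparation 1 and 4 without preparation 2.

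Bile acid genes had the largest share of higher calls among the 27 lists. Of 15 measured members of bile acid synthesis and transport, 11 were called higher (73.3%) and none lower, with a median of 0.30. The list had 1 higher call with no replicate block. Cyp8b1, the enzyme that directs synthesis to cholic acid, lay at 8.04, 8.94 and 9.78 with AICAR, against 7.34, 8.41 and 8.67 with vehicle, and rose by 0.94 ± 0.12, although the ranges overlap because preparations differ in level. The uptake transporter Slco1b2 rose by 0.91 ± 0.13, the export pump Abcb11 by 0.51 ± 0.09 and the sodium-coupled uptake transporter Slc10a1 by 0.45 ± 0.09. Without preparation 1, 6 were called higher, and without preparation 2, 6 higher and 1 lower.

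Genes of fat burning were called in both directions. The 17 measured members cover fatty acid oxidation and the targets of PPAR alpha. Of these, 9 were called higher (52.9%) and 2 lower (11.8%), with a median of 0.17. With 991, against the same vehicle arrays, the list had a median of 0.15. Set directly against 991, AICAR gave 3 members called higher and 2 lower. With no replicate block 3 members were called higher than with vehicle and 0 lower. Without preparation 1 the counts were 4 higher and 1 lower, and without preparation 2, 6 and 1. Ppara, the fasting nuclear receptor itself, lay at 9.87, 10.05 and 10.20 with AICAR, against 9.26, 9.37 and 9.58 with vehicle, and rose by 0.63 ± 0.10. The fasting hormone Fgf21 rose by 0.84 ± 0.19, with 0.50 in preparation 1 and 1.18 in preparation 2, and was not called without preparation 2. Angptl4, a secreted inhibitor of lipoprotein lipase and a PPAR alpha target, fell by 0.51 ± 0.11, but the mean of its 2 probe sets gave 0.003. Of 18 measured genes of fatty acid and triglyceride synthesis 5 were called higher (27.8%) and 3 lower (16.7%). Lpin1, a phosphatidate phosphatase and coregulator, rose by 0.90 ± 0.18 (8.67, 9.20 and 9.65 with AICAR, against 8.09, 8.29 and 8.58 with vehicle), while the elongase Elovl6 fell by 0.61 ± 0.06.

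Sterol and sugar genes were called in part. Of 20 measured genes of cholesterol synthesis and uptake 3 were called higher and 1 lower, led by Lss (0.40 ± 0.08), Hsd17b7 (0.30 ± 0.07) and Hmgcs1 (0.23 ± 0.06), against Sqle (-0.16 ± 0.05). Without preparation 1 none of the list was called. Insig2, a retention protein for the sterol sensor, rose by 0.58 ± 0.06. Among 16 measured ChREBP targets and genes of fructose and glucose metabolism 4 were higher and 1 lower, including ketohexokinase (Khk, 0.30 ± 0.05) and, lower, pyruvate kinase (Pklr, -0.33 ± 0.07). Txnip, an arrestin that curbs glucose uptake, averaged 8.06 with AICAR and 8.02 with vehicle in preparation 1, and 8.55 and 7.61 in preparation 2, and was not called (0.49 ± 0.16, adjusted p = 0.0622).

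The genes that handle AICAR and purines included 1 large change. Adk, the adenosine kinase that turns AICAR into ZMP, lay at 12.75, 12.94 and 13.03 with AICAR, against 12.48, 12.70 and 12.88 with vehicle, and rose by 0.21 ± 0.06 (adjusted p = 0.0276), a call lost without either preparation. Of 26 measured genes of AICAR uptake and purine metabolism 3 were higher (11.5%, against 10.6% of all genes) and 4 lower (15.4%, against 7.31%). Ampd1, the muscle-type AMP deaminase, lay at 5.46, 6.19 and 6.68 with AICAR, against 4.29, 4.48 and 4.61 with vehicle, and rose by 1.67 ± 0.15 from a level far below the median gene. Pfas, an enzyme of purine synthesis upstream of ZMP, fell by 0.50 ± 0.07 and the ectonucleotidase Nt5e by 0.35 ± 0.06. Of 11 measured AMPK subunits and upstream kinases only Prkag3, a gamma subunit gene, was called (-0.34 ± 0.08), and it was lost without preparation 1.

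Folliculin, a partner of the Rag GTPases in lysosomal signalling, was measured because it stands on a branch close to AMPK. Flcn lay at 8.97, 9.05 and 9.17 with AICAR and 8.68, 8.89 and 8.99 with vehicle, and did not pass (0.22 ± 0.09, adjusted p = 0.113). Its binding partner gene Fnip1 rose by 0.58 ± 0.14, with no overlap between the groups' arrays. Rragd (-0.27 ± 0.08) and Sqstm1 (-0.19 ± 0.03) fell, and the other 10 of the 14 measured genes, beside Flcn, were not called.

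The integrated stress response list split. This pathway lowers general translation through eIF2 and raises ATF4 and its targets. Of 23 measured members 8 were called higher and 10 lower, with a median of -0.04, so calls ran at 34.8% and 43.5% in opposite directions. With no replicate block the list had 4 higher and 0 lower calls, so the lower calls depend on the block. The median of the list was -0.19 without preparation 1 and 0.03 without preparation 2. Ppp1r15a lay at 10.21, 10.40 and 10.54 with AICAR, against 9.03, 9.45 and 9.67 with vehicle, and Ddit4, a stress-induced inhibitor of mTORC1, lay at 8.25, 8.88 and 9.41 with AICAR, against 9.51, 9.95 and 10.09 with vehicle (-0.97 ± 0.15). Slc7a11, the cystine importer, fell by 0.75 ± 0.07 and the mitochondrial serine enzyme Shmt2 rose by 0.62 ± 0.06. Among 16 measured genes of the unfolded protein response only Atf6 was called (0.30 ± 0.06), and among 12 heat shock genes only Hspb1 (-0.31 ± 0.08) and Dnaja1 (-0.18 ± 0.05), both lower and both lost without preparation 1, Dnaja1 also without preparation 2.

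Of 14 measured NRF2 targets and antioxidant genes 6 were called lower (42.9%) and 2 higher (14.3%), with a median of -0.10. With no replicate block 1 was called lower and 1 higher. The falls included Nqo1 (-0.37 ± 0.09), Srxn1 (-0.29 ± 0.06) and Osgin1 (-0.26 ± 0.05). Without preparation 1 the list had 3 lower calls, and without preparation 2 also 3. Of 15 measured hypoxia genes 8 were called higher (53.3%) and none lower, with a median of 0.33. The hypoxia list had 1 higher call with no replicate block. Egln3, an oxygen-sensing prolyl hydroxylase, rose by 0.81 ± 0.09 and the stress gene Ndrg1 by 0.73 ± 0.14, with Ndrg1 at 11.07, 11.29 and 11.53 with AICAR, against 10.41, 10.57 and 10.67 with vehicle. The vasoactive peptide gene Adm rose by 0.59 ± 0.09 and the pyruvate dehydrogenase kinase Pdk1 by 0.49 ± 0.05. Without preparation 1, 6 hypoxia genes were higher, and without preparation 2, 5 were higher and 1 lower. Of 15 measured p53 targets 5 rose (33.3%) and none fell. The rises included Sesn1 (0.77 ± 0.17), Gadd45a (0.45 ± 0.11) and the cell cycle inhibitor Cdkn1a (0.38 ± 0.03).

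Inflammatory genes behaved unalike. Of 23 measured inflammatory and acute phase genes 8 were called higher (34.8%) and 4 lower (17.4%). The rises were modest, with acute phase genes such as Crp (0.46 ± 0.06) and fibrinogen beta (Fgb, 0.29 ± 0.07) ahead, and included the cytokine gene Il6 (0.21). The falls were Cxcl1, Ccl2, Nfkbia and Tnfaip3, of which Tnfaip3 is named, like Il6, after its value was seen. Ccl2, a monocyte attractant, lay at 10.62, 10.91 and 10.99 with AICAR, against 11.41, 11.50 and 11.81 with vehicle (-0.77 ± 0.12), and Nfkbia, the inhibitor of NF-kB, at 11.45, 11.55 and 11.73 with AICAR, against 11.97, 12.13 and 12.37 with vehicle (-0.59 ± 0.08). Of the other Nfkbia probe sets 2 were called lower and 2 were not called (0.08 and 0.15). Macrophage markers rose in the same arrays, as given above. Without preparation 1 the counts were 3 higher and 4 lower, and without preparation 2, 4 and 4.

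Interferon genes were raised in part. Of 15 measured members 5 were called higher (33.3%) and 1 lower (6.7%). Usp18, an interferon-induced protease that limits the response, lay at 10.02, 10.57 and 11.12 with AICAR, against 9.35, 9.74 and 9.92 with vehicle (0.85 ± 0.08). Rsad2 (0.69 ± 0.09) and Ifit1 (0.62 ± 0.13) rose too, and both were highest on array 2 of preparation 2 with AICAR. Without that array Rsad2 changed by 0.56 (adjusted p = 0.000732) and Ifit1 by 0.47 (adjusted p = 0.0234), and 4 members were higher and 2 lower. Irf1, an interferon regulatory factor, fell by 0.63 ± 0.09, with arrays at 8.83, 8.92 and 8.98 against 9.32, 9.50 and 9.79 with vehicle.

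Genes known to be induced by glucocorticoids are of note because all cells were held in dexamethasone. Of 17 measured members 11 were called higher (64.7%) and 3 lower (17.6%), with a median of 0.19. The counts were 6 higher and 1 lower without preparation 1, and 7 and 2 without preparation 2. Besides Gadd45g, the zinc finger gene Zbtb16 rose by 0.61 ± 0.06 (9.88, 9.96 and 10.05 with AICAR, against 9.23, 9.34 and 9.53 with vehicle) and the sulfotransferase Sult1e1 by 0.57 ± 0.08. Dusp1 is also a classical member, and it fell. Clock genes were called in 6 higher (33.3%) and 1 lower (5.6%) of 18, with Dbp (0.47 ± 0.09), Cry2 (0.32 ± 0.06) and, lower, Bhlhe40 (-0.27 ± 0.05). Per2 (0.40 ± 0.09) has another probe set called in the opposite direction, and the mean over its probe sets was -0.22. The clock list had no higher call without preparation 1 and 1 without preparation 2, with 1 lower in each case.

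Targets of xenobiotic receptors and of insulin were also counted. Of 15 measured targets of the aryl hydrocarbon and xenobiotic receptors 5 rose (33.3%) and none fell. The rises included Tiparp (0.67 ± 0.08), the receptor gene Ahr (0.37 ± 0.08) and the drug-metabolizing enzymes Cyp1a2 (0.30 ± 0.05) and Cyp2c29 (0.29 ± 0.04). Of 16 measured insulin and FOXO targets 6 rose (37.5%) and 2 fell (12.5%). Pdk4, Sesn1 and the binding protein Igfbp1 (0.40 ± 0.09) were higher and the pseudokinase Trib1 was lower (-0.75 ± 0.10). The insulin and FOXO list had 4 higher and 1 lower without preparation 1, and 2 of each without preparation 2. A dimmer Trib1 probe set was called higher.

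Housekeeping programmes were called in part, where 10.6% of all genes were called higher and 7.31% lower. Among 20 measured ribosome biogenesis genes 3 rose and 4 fell, with the nucleolar proteins Nop58 (0.33 ± 0.05) and Nop56 (-0.40 ± 0.04) in opposite directions. Among 22 measured genes of mitochondrial biogenesis and respiration 3 rose (13.6%) and none fell. The 3 were the coactivator genes Pprc1 (0.65 ± 0.06) and Ppargc1a (0.38 ± 0.11) and the transcription factor gene Gabpa (0.23 ± 0.07). One-carbon genes were called in 4 higher (22.2%) and 1 lower (5.6%) of 18. Aldh1l1 (0.54 ± 0.09) and Pemt (0.20 ± 0.06) rose beside Shmt2, and thymidylate synthase (Tyms) was lower at a low level (-0.42 ± 0.07). Of 15 measured cell cycle genes 1 rose (6.7%) and 4 fell (26.7%). The ribonucleotide reductase subunit Rrm2 was up by 1.06 ± 0.23 (8.58, 8.64 and 8.84 with AICAR, against 7.12, 7.87 and 8.06 with vehicle). Mcm5 (-0.41 ± 0.10), Ccnd1 (-0.32 ± 0.09) and Ccne1 (-0.29 ± 0.07) were lower, and all 3 were lost without preparation 1, Ccne1 also without preparation 2.

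**Figure D3:**
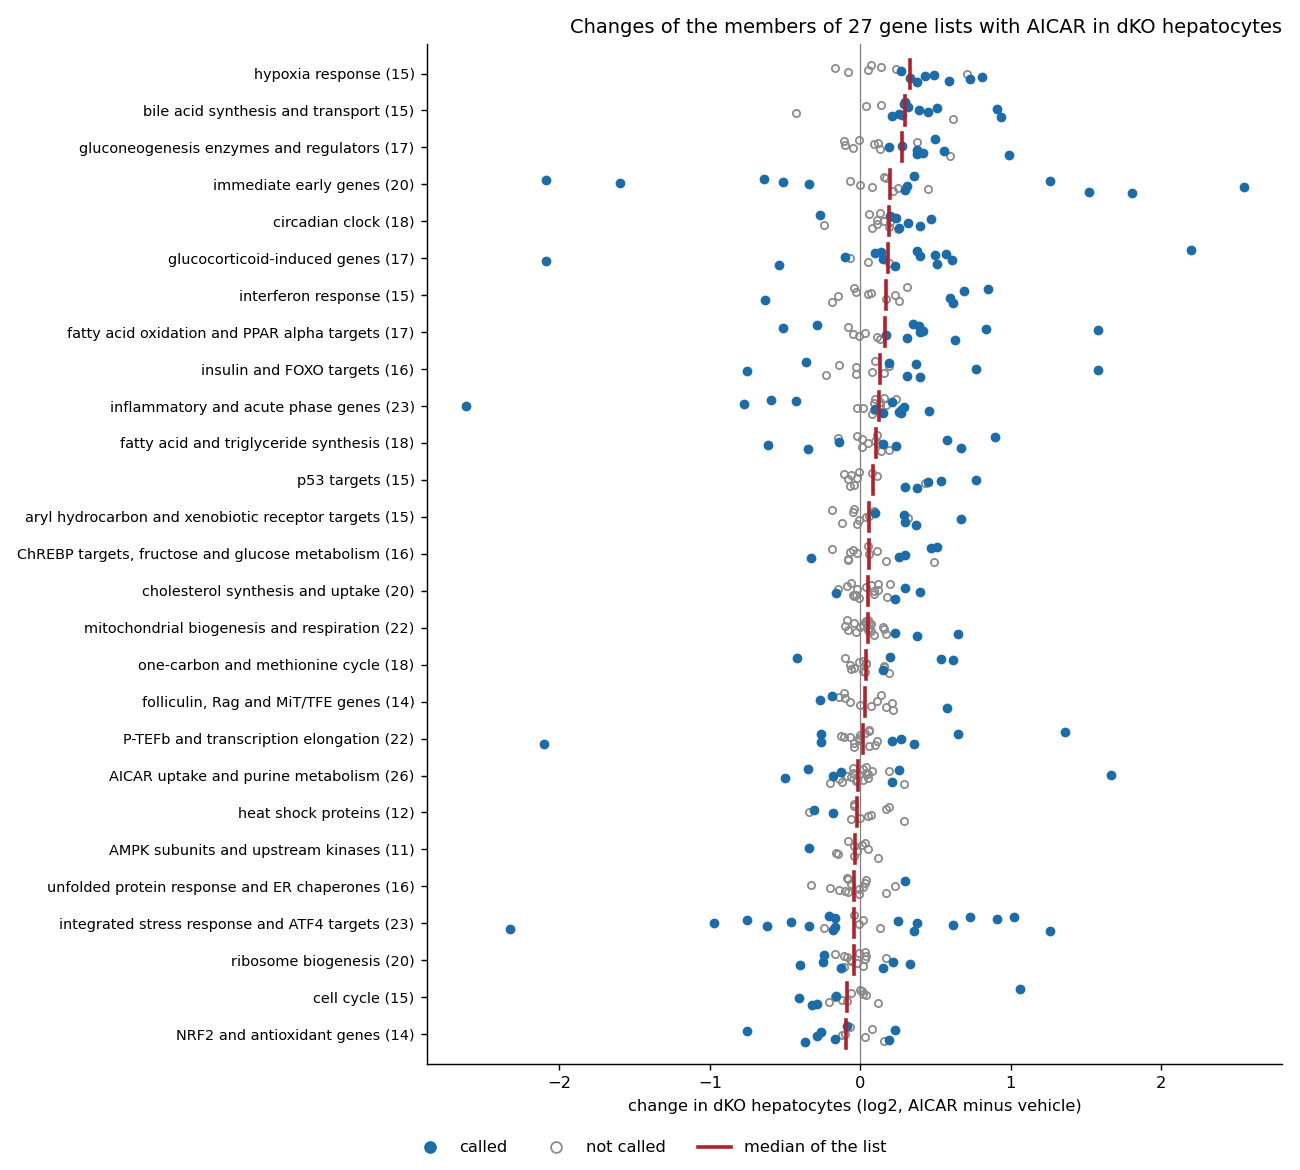
Each point is a measured gene of 1 of 27 lists, placed by its log2 change with AICAR in dKO hepatocytes (horizontal axis), with filled points called, open points not called and a red line at the median of the list. The number of measured genes stands in parentheses beside each list. Hypoxia, bile acid and gluconeogenesis genes have medians near 0.3 with no member called lower, while immediate early and integrated stress response genes spread to both sides.

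The compound 991 gives a contrast within the same cells, since it was applied to the same dKO preparations. AICAR at 300 µM differed from 991 at 3 µM in 3310 genes (18.4%), 1948 higher (10.8%) and 1362 lower (7.55%) with AICAR, by the contrast of these groups. The vehicle means enter this contrast only through the shared block and spread of the fit. The doses differ, so the comparison is of these treatments and not of equal exposures. Beside vehicle, 991 led to 1 called gene in dKO cells, which was lower (0.00555% of genes), with 814 genes at an unadjusted p under 0.05 in limma. H3f3b was higher with AICAR than with 991 by 4.00 ± 0.20, Egr1 by 2.42 ± 0.21 and Gadd45g by 2.03 ± 0.25. Neat1 was lower by -3.98 ± 0.19, Cxcl1 by -2.82 ± 0.12 and Ddit3 by -2.81 ± 0.29.

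A few genes moved toward the same side with both compounds. Fgf21 changed by 0.84 with AICAR and by 0.84 with 991, both against the same vehicle arrays, and the difference between the compounds was 0.00 ± 0.19 (adjusted p = 0.999). Pdk4 changed by 1.58 with AICAR and 0.55 with 991, and the difference of 1.03 ± 0.24 was called (adjusted p = 0.0122). Atf3 changed by 1.26 and 0.45, with a difference of 0.81 ± 0.26 (adjusted p = 0.0479). Ddit3 went in opposite directions, with -2.33 for AICAR and 0.49 for 991, as did Ier3 with -1.60 and 0.39. None of these 991 changes was itself called.

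**Figure D4:**
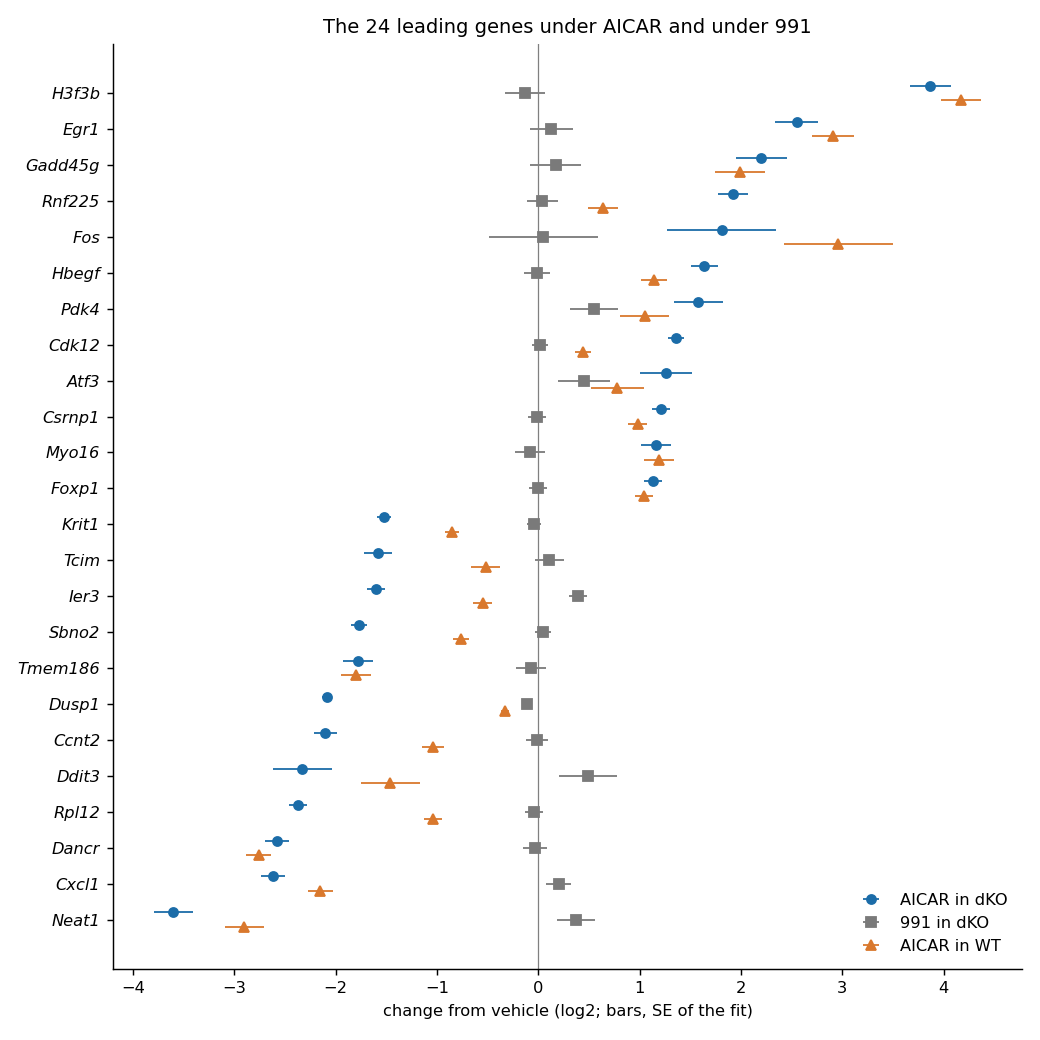
The log2 change from vehicle (horizontal axis) is given for the 12 largest rises and 12 largest falls with AICAR in dKO hepatocytes, with circles for AICAR in dKO, squares for 991 in dKO and triangles for AICAR in WT cells, and bars for the SE of the fit. The squares lie between -0.13 and 0.55, and AICAR moves all 24 genes in the same direction in both genotypes. The change is smaller in WT, with a called difference, for Dusp1, Rpl12, Ccnt2, Sbno2, Ier3, Krit1, Rnf225 and Cdk12.

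The same AICAR dose in WT hepatocytes called 2991 genes (16.6%), 1544 higher (8.56%) and 1447 lower (8.02%). The genotypes share no arrays. The dKO and WT calls had 1813 genes in common with the same direction, which is 56.3% of the dKO calls and 60.6% of the WT calls, and 7 with opposite directions. Across genes the changes in dKO and WT correlated with r = 0.771 (Spearman's rho 0.61), as a description over 18032 genes that share platform, normalization and treatment. Of the 367 dKO calls of at least 1.5-fold, 351 had the same sign in WT and 312 were called there in the same direction. H3f3b changed by 3.87 in dKO and 4.17 in WT, Dancr by -2.58 and -2.76, Tmem186 by -1.78 and -1.80, and Rrm2 by 1.06 and 1.06, and these differences were not called.

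The difference between the genotypes was itself called for 56 genes (0.311%), 28 with a higher and 28 with a lower change in dKO. In 51 of them the change was larger in size in dKO, in 23 the signs were opposite, and in 23 the gene was called in dKO and not in WT. With no replicate block for preparation 16 were called, and with genes at or above the median level alone 20. Dusp1 had the lowest adjusted p. It fell by 2.09 in dKO cells and by 0.33 in WT cells, where arrays lay at 11.68, 11.88 and 11.95 with AICAR, against 12.12, 12.19 and 12.26 with vehicle, and the difference was -1.76 ± 0.06 (adjusted p = 7.88e-08). The vehicle levels of Dusp1 were close (12.32 ± 0.11 in dKO and 12.18 ± 0.02 in WT, SD, n = 2 preparations each). With AICAR they were 10.23 ± 0.06 in dKO and 11.86 ± 0.06 in WT.

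Other genes that fell further in dKO were Rpl12 (difference -1.33 ± 0.12), Ccnt2 (-1.06 ± 0.16), Ier3 (-1.06 ± 0.13), Sbno2 (-1.01 ± 0.11) and Krit1 (-0.67 ± 0.09). Genes that rose further in dKO were Ampd1 (1.41 ± 0.21), Rnf225 (1.28 ± 0.22) and Cdk12 (0.92 ± 0.11). On the probe sets used, Nfkbia and Trib1 had opposite signs, each called in each genotype. Nfkbia changed by -0.59 in dKO and 0.31 in WT, and Trib1 by -0.75 in dKO and 0.34 in WT. Other probe sets disagreed in part in dKO, with 2 of Nfkbia not called (0.08 and 0.15) and a dimmer one of Trib1 called higher. Nfkbia lay at 12.16, 12.38 and 12.51 on WT arrays with AICAR, against 11.90, 12.10 and 12.16 with vehicle.

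Other genes named for their difference were called in dKO and had a fitted change of the opposite sign in WT, called there for Tra2a alone. Sertad1, a transcriptional coregulator, lay at 9.94, 10.05 and 10.21 with AICAR, against 9.28, 9.34 and 9.45 with vehicle in dKO cells, a rise of 0.72 ± 0.06, and changed by -0.16 in WT. The Integrator subunit Ints2 changed by 0.67 in dKO and -0.09 in WT, and Rbbp6, a factor of messenger RNA 3′ end processing, by 0.73 in dKO and -0.05 in WT, although 2 other Rbbp6 probe sets were called lower in dKO and the Rbbp6 difference was lost without either preparation. The splicing factor Tra2a changed by 0.53 in dKO and -0.38 in WT, and Nop58 by 0.33 in dKO and -0.07 in WT. Gdap10 changed by -0.91 in dKO and 0.18 in WT. The largest of the 56 called differences, 2.38 for the growth factor gene Fgf18 (2.54 in dKO and 0.16 in WT), belongs to a gene below the median level and was singled out after its values were seen.

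The lists can be set beside WT. Gluconeogenesis genes had a median change of 0.28 in dKO and 0.35 in WT, bile acid genes 0.30 and 0.33, and NRF2 genes -0.10 and -0.18. Hypoxia genes had 0.33 in dKO and 0.13 in WT, with 8 and 5 members higher, and genes of the unfolded protein response had -0.04 in dKO and -0.20 in WT, with 0 and 7 members lower. Whether a list's change differs between the genotypes was not tested, and none of the listed hypoxia or unfolded protein response genes named here was called in the difference.

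**Figure D5:**
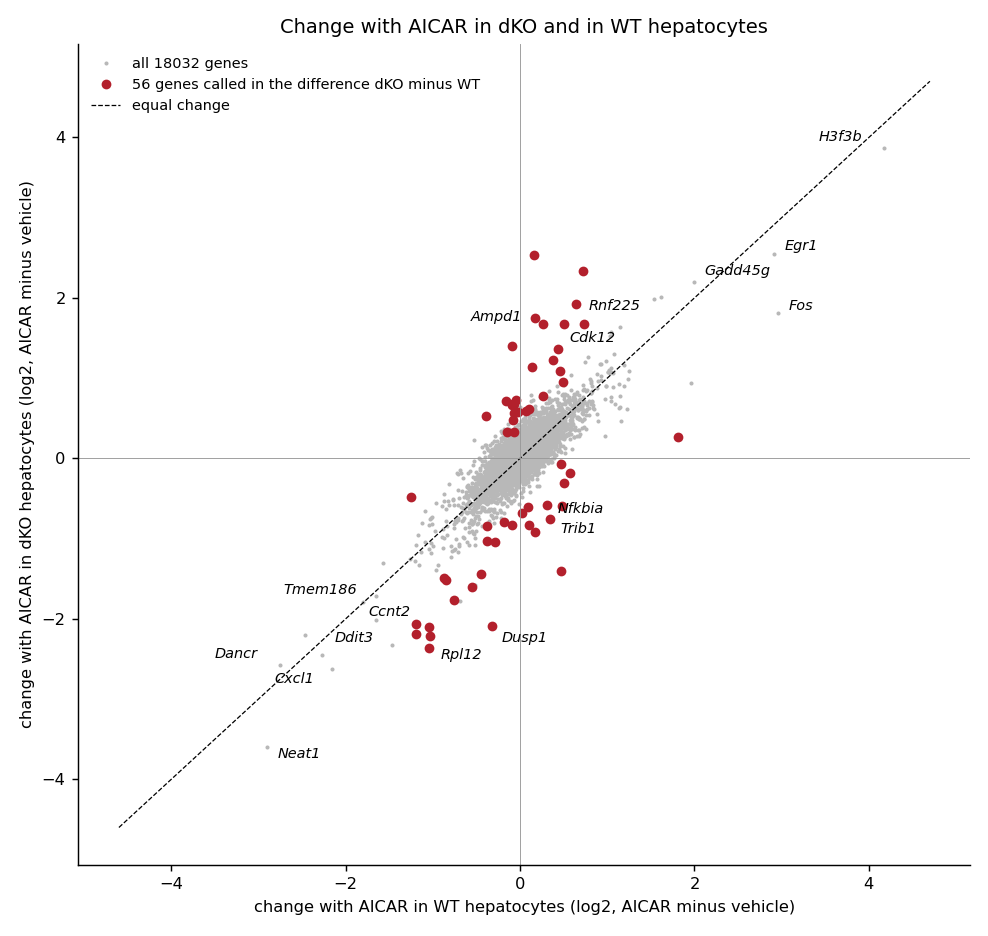
Each grey point is 1 of 18032 genes, placed by its log2 change with AICAR in WT (horizontal axis) and in dKO hepatocytes (vertical axis), and red points are the 56 genes called in the difference. The dashed line marks equal change. H3f3b, Dancr and Tmem186 lie near the line, and Dusp1 lies at -2.09 on the vertical and -0.33 on the horizontal axis.

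In dKO MEFs, AICAR was given at 2 mM, a higher dose in another cell type, and 7223 genes were called (40.1%, with 20.4% higher and 19.7% lower), on technical replicates whose p-values measure technical spread alone. Values are set side by side with no test between the cell types. Neat1 fell in both, with -2.70 in dKO MEFs and -3.60 in dKO hepatocytes, as did Dusp1, with -0.98 and -2.09. Tcim changed by -2.20 in dKO MEFs and -1.58 in dKO hepatocytes, and Tmem186 by -1.41 and -1.78. Others went opposite ways. Cdk12 changed by -1.63 in dKO MEFs and 1.36 in dKO hepatocytes, Egr1 by -0.55 and 2.55, H3f3b by -0.39 and 3.87, Gadd45g by -0.78 and 2.20, and Ppp1r10 by -2.01 and 0.65.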

How the data were processed

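RNA of 59 hepatocyte and 23 MEF arrays was measured, of which 19 carry the main comparison. Per the submitters' processing notes, RMA and Partek were used, with versions not given in the sources used here, and the authors deposited log2 values per probe set. Per the labels, technical replicate 4 of preparation 1 of dKO vehicle was left out as an outlier. Of 45101 probe sets, 64 controls were dropped, and 34741 matched a mouse gene table by Entrez identifier. They give 18032 genes, each represented by its probe set with the highest mean over hepatocyte arrays.

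Technical replicates were averaged, and 12 preparation means were fitted in R 4.3.3 with limma 3.58.1 (linear model, moderated by eBayes with a trend) with preparation within genotype as block (4 residual degrees of freedom), with Benjamini-Hochberg adjustment. The labels number the biological replicates, and preparation deviations correlated between AICAR and vehicle (r = 0.551 across genes). MEFs were fitted separately, each array a sample. The procedure was tested on simulated data. Tables and figures used Python 3.11.15, pandas 2.3.3 and matplotlib 3.10.9.

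Named genes are 8 fixed genes, the 12 largest rises and falls among called genes at or above the median level, up to 4 called members per list, and the 6 largest called differences of each sign from 991 and from WT. Predicted and sex-linked marker genes could not enter by size. Samples, 33 gene lists and rules were chosen with earlier results of these data known. Alternatives were quantile normalization, a level filter, the mean of probe sets, no trend, no block, every array as a sample, and leaving out arrays or preparations. List counts under these alternatives, and without the 2 arrays that stood apart most often, were added after seeing the data.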

Additional observations from a re-analysis of the deposited data

Results flagged for a closer look

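Some values stood apart within their group by Dixon's ratio. Of 272 pairs of a named gene and a dKO group, 12 had such an array, where chance gives about 1 in 20. Array 2 of preparation 2 with AICAR was highest for the interferon genes Rsad2 (11.47, with the others at 10.07 to 10.52) and Ifit1 (8.82, with the others at 7.22 to 7.75). Array 5 of preparation 1 with vehicle was lowest for Krit1 (7.90), Pcx (10.37), Sesn1 (8.29) and Dbp (6.31) and highest for Tra2a (8.81). The remaining ones were Prkaa1 at 4.21, Rpl12 at 6.41, Hsd17b7 at 10.17 and Hmgcs1 at 12.28 with AICAR, and Prkaa2 at 9.75 with vehicle. Without array 5 of preparation 1 with vehicle 3204 genes were called, and without array 2 of preparation 2 with AICAR 3240.

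The change with AICAR differed between dKO and WT hepatocytes by a test of the difference in limma for 17 named genes. The difference (dKO minus WT) was -1.76 for Dusp1, -1.33 for Rpl12, -1.09 for Trib1, -1.09 for Gdap10, -1.06 for Ccnt2, -1.06 for Ier3, -1.01 for Sbno2, -0.89 for Nfkbia and -0.67 for Krit1. It was 1.41 for Ampd1, 1.28 for Rnf225, 0.92 for Cdk12, 0.91 for Tra2a, 0.88 for Sertad1, 0.77 for Rbbp6, 0.76 for Ints2 and 0.40 for Nop58.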

How the results depend on the processing

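Counts are given for AICAR against vehicle in dKO cells, AICAR against 991 in dKO cells and the difference between dKO and WT, in that order. With no replicate block 1078, 1113 and 16 genes were called, against 3221, 3310 and 56 with it. Of the 136 named genes 130 were called against vehicle in dKO cells, and 71 of these lost their call. With every array as a sample there were 7103, 7116 and 2308, and with the technical replicate number as a further replicate block 7060, 7074 and 2271, since technical replicates understate the spread. Technical replicate numbers did not pair arrays (median r = -0.00364). Leaving out an array or a preparation gave 1018 to 3286, 1336 to 3404 and 38 to 81. Without preparation 1, 43 named calls were lost and without preparation 2, 35. Each dKO preparation alone gave 6695 and 5850. Testing every probe set gave 9355 of 45037, and genes at or above the median level alone left 20 calls in the difference. Quantile normalization gave 3984, 3892 and 49. Among named genes, Hexim1, Angptl4, Per2, Rbbp6 and Prkaa2 changed sign in some of these alternatives, Prkaa2 without being called in any. Hexim1 was 1.11 and Angptl4 0.003 over the mean of probe sets, Per2 -0.22 and Rbbp6 -0.08, and Hexim1 was 0.21 in preparation 2 alone. The cause was not tested beyond the probe sets named. Dim genes such as Ampd1 and Tyms are limited by signal over background.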

Other observations

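Gene classes outside the lists, picked after their values were seen and given without a test, were called unevenly. Of 305 genes with a Zfp symbol, which are mostly zinc finger genes, dKO cells had 10 calls of a rise and 86 of a fall (28.2%), and WT cells 5 and 63. Of 14 small nucleolar RNA host genes (Snhg), 2 were higher and 8 lower. Over all genes 10.6% were higher and 7.31% lower, and the 1355 long noncoding RNAs, at 4.35% and 6.57%, were below both shares. By the length of the gene in the genome, the shortest quartile (up to 7.95 kb) had 6.79% higher and 10.1% lower, and the longest (over 50.5 kb) 767 higher and 149 lower of 4508. In WT cells these quartiles had 231 higher and 477 lower, and 681 higher and 164 lower, of 4508 genes each.

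Probe sets with no single matched gene fell more often than the rest. Of 10296 such probe sets 702 were called higher and 1755 lower, against 3787 and 3111 (8.95%) of the 34741 matched ones.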
